A study of Mustela putorius furo and Mus musculus with 4 samples.

Results

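*Zic1*, *Zic2*, *Zic4* and *Zic5* are 4 genes among the 17170 in the mouse table and the 22008 in the ferret table, where they are written in capitals. Single cells of the embryonic cortex were counted, 18120 of mouse and 23482 of ferret. The genes were chosen by their detection and co-detection in progenitors and neurons of these same cells and by genotype, so all values across cell classes and genotypes are given as a description, without a test.

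The mouse cells are 1 library of cortex from *hGFAP-Cre*;*Smo F/F* mice, called *Smo*-cKO, and 1 from littermate controls, with CD1 given as the strain. The dye CellTrace Yellow had been placed in the lateral ventricle at E17.0 to mark the progenitors that line it, and marked cells were sorted from cortex taken at E18.0. In *Smo*-cKO, Cre driven by the human GFAP promoter removes *Smo* from cortical radial glia and all that descend from them, and the Cre is also active in radial glia of the lateral ganglionic eminence before E18.0. The labels call the control wild type, and the methods call it *Smo F/F* without Cre. The barcode suffix of 10524 cells was taken as the control and that of 7596 as *Smo*-cKO, from the cell number that the methods give for each, and every direction between genotypes rests on that assignment. How many embryos went into each library is not given in the sources used here. The ferret cells come from the cortex of 1 wild type embryo at E39, in 2 sets of barcodes that could not be tied to the labelled samples and are called ferret set 1 and ferret set 2. With 1 library per genotype there is no replicate error. Genotype and library cannot be told apart, and all intervals are 95% intervals for counting error only.

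Zic proteins are transcription factors with a block of zinc fingers that is related to the zinc fingers of the GLI proteins, the effectors of hedgehog signaling. In the early telencephalon, Zic genes are known from the dorsal midline and the adjoining medial wall, the cortical hem, the septum, the meninges and the Cajal-Retzius neurons that arise at the edges of the cortex. In the mouse they lie in pairs that face away from each other. *Zic1* and *Zic4* form 1 pair on chromosome 9 and *Zic2* and *Zic5* another on chromosome 14.

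In the GENCODE vM21 annotation of GRCm38, which is the mm10 build that the submitters' processing notes name, *Zic1* (ENSMUSG00000032368) is on the minus strand of chromosome 9 from 91358058 to 91365810. *Zic4* (ENSMUSG00000036972) is on the plus strand from 91362413 to 91389348. The 2 gene bodies share 3398 bases on opposite strands, so reads in that stretch can be told apart only by strand, and how strand was used in counting is not given in the sources used here. *Zic5* (ENSMUSG00000041703) is on the minus strand of chromosome 14 from 122456795 to 122465677, and *Zic2* (ENSMUSG00000061524) is on the plus strand from 122475435 to 122479852, with 9757 bases between them. The members are alike where the zinc fingers are encoded, which is the reason to show that stretch. Below are 90 coding bases of each, within 1 exon, with capitals for the 73 bases that are the same in all 4 genes.
Zic1: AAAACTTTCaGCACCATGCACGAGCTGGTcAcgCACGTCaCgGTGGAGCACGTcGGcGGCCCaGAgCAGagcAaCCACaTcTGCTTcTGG
Zic2: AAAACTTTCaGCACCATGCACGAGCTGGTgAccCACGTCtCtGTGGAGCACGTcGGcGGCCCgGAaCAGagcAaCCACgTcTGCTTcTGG
Zic4: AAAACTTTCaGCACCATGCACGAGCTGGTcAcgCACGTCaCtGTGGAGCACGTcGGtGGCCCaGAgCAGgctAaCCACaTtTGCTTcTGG
Zic5: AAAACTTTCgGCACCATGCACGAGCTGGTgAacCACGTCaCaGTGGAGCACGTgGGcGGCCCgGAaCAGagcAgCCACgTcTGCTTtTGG

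These stretches lie at chr9:91364199-91364288 (minus strand) for *Zic1*, chr14:122476495-122476584 (plus) for *Zic2*, chr9:91379150-91379239 (plus) for *Zic4* and chr14:122464055-122464144 (minus) for *Zic5*. *Zic1* matched *Zic4* at 93.3% of the 90 bases and *Zic2* at 92.2%, *Zic2* matched *Zic5* at 92.2%, and *Zic4* and *Zic5* were the least alike at 82.2%. Words of 31 bases shared between annotated transcripts numbered 9 for *Zic1* and *Zic2*, 13 for *Zic1* and *Zic4* and 0 for the other 4 pairs of members. In the last 500 bases of the transcripts, where this 3' assay reads, no pair shared such a word. UMI levels are not per length, so levels are compared within a gene and never between genes.

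Cells were sorted into classes by markers other than Zic genes. A cell took the class of which it showed the most markers, with at least 3 of 10 required and ties left unassigned. The classes used are radial glia (RG), the primary neural stem cells, intermediate progenitor cells (IPC), pyramidal neurons (PyN), Cajal-Retzius neurons (CR), vascular cells and microglia. In the control, RG held 3471 cells, IPC 3281 and PyN 1800, and in *Smo*-cKO they held 2071, 1724 and 1876. Genes that are no class markers followed the names. Levels are given as CPM, the UMIs of a gene scaled to the total UMIs of the cells. A list of 5 progenitor genes summed to 11682 CPM in control RG, 2348 in IPC and 636 in PyN, and a list of 5 neuron genes to 475, 1433 and 3587.

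The classes are ranges, not sharp types. Between 14.8% and 15.9% of mouse cells stayed unassigned, 28.5% to 29.0% of assigned cells sat at the limit or led by 1 marker, and 47.3% to 48.1% also held 3 or more markers of a second class. Median UMIs per cell were 5180 in control RG and 7456 in *Smo*-cKO RG, and 4033.5 and 4836 over all kept cells. A share of cells with a UMI therefore favors *Smo*-cKO, and levels in CPM or shares at a fixed 2000 UMIs per cell are read first. Barcodes that occur with both suffixes numbered 28 in mouse and 38 in ferret.

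The targeted gene was checked first. *Smo*, the receptor that passes on the hedgehog signal, was found in 272 of 3471 control RG cells (13.7 CPM) and in 6 of 2071 *Smo*-cKO RG cells (0.358 CPM). In IPC it was in 76 of 3281 and 3 of 1724 cells, and in PyN at 2.06 and 0.476 CPM. *Prm1*, a gene of the male germ line, was found in none of the control RG cells, a count of 0 that would be met with shares up to 0.0864%, and in 1744 of 2071 *Smo*-cKO RG cells (84.2%). It was listed as a transgene signal and read with *Smo* to check the assignment of suffixes. The source of its UMIs was not tested, and no change of the germ line gene is read from them.

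*Zic2* and *Zic5* were found mainly in radial glia and in very few neurons, while *Zic1* was as high in IPC and PyN as in RG or higher and *Zic4* lay between. In the control, 1073 of 3471 RG cells (30.9%) held a UMI of at least 1 of the 4 genes, against 451 of 3281 IPC (13.7%) and 129 of 1800 PyN (7.17%). In *Smo*-cKO the counts were 723 of 2071 (34.9%), 266 of 1724 (15.4%) and 174 of 1876 (9.28%). Microglia, which should lack these genes, give the background. In the control 2 of 92 (2.17%, median 8101 UMIs) held a *Zic1* UMI and none held another member, and in *Smo*-cKO 3 of 169 (1.78%, median 7575) held *Zic1* alone. A count of 0 allows shares of up to 3.26% and 1.78% there. With so few microglia the control limit is coarse, and the shares of *Zic4* in all 3 classes of the control and those of *Zic2* and *Zic5* in IPC also lie under it.

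*Zic5* reached 31.3 CPM (interval 28.9 to 33.8) in control RG, 6.05 in IPC and 0.737 in PyN. It was 42.5 times higher in RG than in PyN (18.1 to 131). *Zic2* ran the same course, with 20.0 CPM (18.2 to 22.0) in RG, 3.94 in IPC and 1.03 in PyN, a ratio of RG to PyN of 19.4 (9.34 to 48.6). The PyN values of both genes rest on 5 and 7 cells, shares of 0.278% and 0.389%. They are below the coarse microglial limit and cannot be told from background.

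*Zic1* did not follow them. Its level was 23.0 CPM (21.0 to 25.2) in control RG, 34.8 (31.9 to 37.9) in IPC and 28.7 (24.8 to 33.1) in PyN. The ratio of IPC to RG was 1.51 (1.33 to 1.71) and that of PyN to RG 1.25 (1.05 to 1.48), but the latter came to 0.940 (0.739 to 1.18) when a class had to lead by 2 markers. In *Smo*-cKO the PyN to RG ratio of *Zic1* was 2.15 (1.80 to 2.57), with 14.8 CPM in RG and 31.8 in PyN.

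*Zic4*, the neighbor of *Zic1*, was detected in few cells. It held 7.09 CPM (5.99 to 8.33) in control RG, 7.10 in IPC and 3.98 in PyN, where 22 of 1800 cells (1.22%) had a UMI. The PyN to RG ratio was 0.561 (0.358 to 0.850).

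The same split shows in where the UMIs lie. RG made up 33.1% of control cells and held 74.6% of *Zic2* UMIs and 78.9% of *Zic5* UMIs, but 32.7% of *Zic1* and 42.7% of *Zic4*. RG cells are deeper than the kept cells as a whole, so these shares of UMIs exceed what shares of cells alone would give. Scaled to total UMIs, *Zic1* was lower in control RG than over all kept cells, at 23.0 against 28.5 CPM. *Zic4* was close, at 7.09 against 6.72 CPM, and *Zic2* and *Zic5* were higher in RG. In *Smo*-cKO, RG made up 28.7% of cells and held 77.3% of *Zic2* and 80.5% of *Zic5*. Of the *Zic1* UMIs in *Smo*-cKO, 27.3% lay in RG, 27.2% in IPC and 29.4% in PyN.

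**Figure D1:**
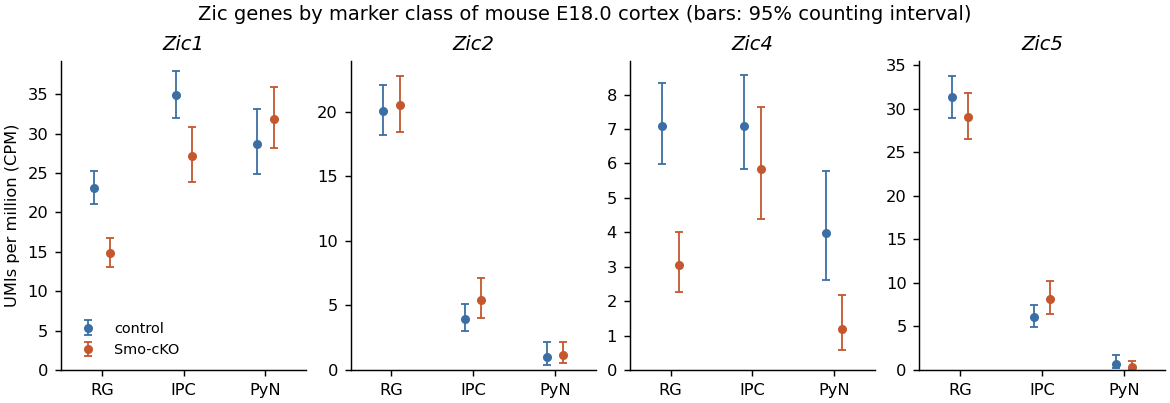
Each panel plots 1 Zic gene, with its level in CPM on the vertical axis and the RG, IPC and PyN classes on the horizontal axis. Points are the control (blue) and *Smo*-cKO (orange) libraries and bars are 95% counting intervals. *Zic2* and *Zic5* drop from RG to PyN in both libraries, from 20.0 to 1.03 CPM and from 31.3 to 0.737 CPM in the control, while *Zic1* does not.

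Within control RG, cells with at least 3 of 10 cycling markers were compared with the rest. Cycling RG had 35.1 CPM of *Zic5* against 27.2 in non-cycling RG, 23.0 against 16.8 CPM of *Zic2* and 26.6 against 19.2 CPM of *Zic1*. *Zic4* had 6.74 against 7.48 CPM. The intervals of *Zic4* overlapped between the sets. How many of all genes differ between cycling and non-cycling RG was not counted, so no trait of the Zic genes is read from these values.

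The study set the genotypes side by side to ask what hedgehog signaling does in cortical progenitors. *Zic1* and *Zic4* were lower in *Smo*-cKO RG, and *Zic2* and *Zic5* were at levels close to the control. *Zic1* had 23.0 CPM in the control and 14.8 in *Smo*-cKO, a ratio of 0.64 (0.548 to 0.749), and *Zic4* had 7.09 and 3.04 CPM, a ratio of 0.43 (0.305 to 0.593). *Zic2* had 20.0 and 20.5 CPM, a ratio of 1.02 (0.885 to 1.18), and *Zic5* 31.3 and 29.1 CPM, a ratio of 0.93 (0.825 to 1.05).

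The shares of RG cells with a UMI show how depth enters. *Zic2* was in 10.6% of control and 14.6% of *Smo*-cKO RG cells, and *Zic5* in 15.8% and 18.1%. At 2000 UMIs per cell the differences shrank from 4.01 to 0.35 percentage points for *Zic2* and went from 2.30 to −0.61 for *Zic5*, so no difference is read from either. All 3471 control RG cells and 1966 of the 2071 of *Smo*-cKO were deep enough to enter. For *Zic1* the difference was −1.47 points (−3.02 to 0.15) and −1.29 at 2000 UMIs, and for *Zic4* it was −1.09 (−1.92 to −0.21) and −0.68.

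*Smo*-cKO RG also held fewer cycling cells, 30.9% against 43.7%. Within cycling RG the ratios were 0.67 (0.533 to 0.832) for *Zic1* and 0.32 (0.169 to 0.578) for *Zic4*, and within non-cycling RG 0.67 (0.536 to 0.843) and 0.48 (0.313 to 0.718). The lower levels were thus present in both sets. Without cells that held 3 markers of a second class, the *Zic1* ratio was 0.779 (0.618 to 0.980) and its difference of shares −0.01 points.

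In IPC the *Zic1* and *Zic4* ratios were nearer to 1 than in RG, and those of *Zic2* and *Zic5* were further from it. *Zic1* had 34.8 CPM in the control and 27.2 in *Smo*-cKO, a ratio of 0.78 (0.668 to 0.909), which was 0.929 (0.783 to 1.10) without cycling cells. The intervals of *Zic2* (1.37, 0.918 to 2.03), *Zic4* (0.82, 0.580 to 1.15) and *Zic5* (1.35, 0.978 to 1.85) held 1. In PyN, *Zic1* was at 28.7 and 31.8 CPM (1.11, 0.917 to 1.34), and *Zic4* rested on 27 and 10 UMIs, a ratio of 0.30 (0.129 to 0.638). *Zic2* and *Zic5* had 3 to 10 UMIs per library in PyN, too few for a comparison.

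**Figure D2:**
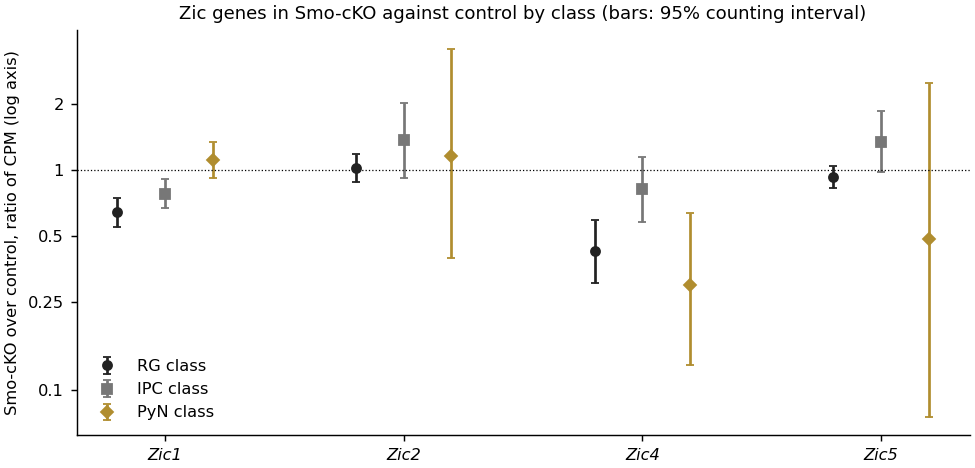
The ratio of CPM, *Smo*-cKO over control, is plotted on a log axis for each Zic gene in the RG, IPC and PyN classes, with 95% counting intervals. In RG, *Zic1* and *Zic4* lie below 1, at 0.64 and 0.43, and *Zic2* and *Zic5* lie at 1.02 and 0.93.

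Against all other genes, measured as the log2 ratio with 1 CPM added among genes that reached 50 UMIs over the pair of libraries, 2.88% of 11961 genes in RG differed at least 2-fold in either direction. *Zic4* was the only member past that fold in RG, with 0.987% of genes lower than it. It only just reached that fold, on 199 UMIs, and with 5 CPM added its log2 ratio was −0.59, short of the fold. *Zic1* was at −0.61, with 3.68% lower, *Zic5* at −0.10 and *Zic2* at 0.03. In IPC, 3.27% of 10907 genes passed the fold and no member did, with values from −0.35 (*Zic1*) to 0.38 (*Zic5*). In PyN, 1.08% of 9976 genes passed, *Zic1* was at 0.14, and the other 3 members had fewer than 50 UMIs.

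Lists of related genes were read in the same way. Among 9 tested hedgehog pathway genes in RG, *Smo* (−3.44), *Ptch1*, the hedgehog receptor and a target of the pathway (−2.72), and *Gli1*, an effector and a target (−2.53), were past the fold and 0 were higher. In IPC, *Smo* (−2.17) and *Ptch1* (−2.74) of 8 were past it. Of 12 tested genes of the medial cortex and hem, 4 were higher in RG and 0 lower. These were the Wnt effector *Lef1* (1.55), *Dmrt3* (1.79), the ligand *Bmp7* (1.15) and the Wnt agonist *Rspo1* (1.17). The list's median was 0.47 against −0.01 over all genes, while *Zic1* and *Zic4* were lower. The list was fixed with earlier results of these data known. The paper had reported *Bmp7*, *Lef1* and other genes of the list as higher in *Smo*-cKO RG of these same cells. Its direction was thus partly set in advance, and no contrast with the Zic genes is read from it. *Etv1* (1.25 in IPC) was the 1 of 5 lateral genes past the fold. The GLI-type zinc finger list held *Gli1* alone past the fold in RG, and the layer list of 14 held none.

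*Zic1* and *Zic4* were found in the same cells far more often than their shares would give. In control RG, 356 cells held *Zic1*, 110 held *Zic4* and 59 held both, where the product of the shares gives 11.3. That is 5.23 times as many (3.98 to 6.75), and 5.28 times at 2000 UMIs per cell. *Zic4* was in 16.6% of RG cells with a *Zic1* UMI (median 6580 UMIs) and in 1.64% of those without (median 5064).

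The ratio was high along the lineage. In control IPC 57 cells held both genes against 8.89 (6.41, 4.86 to 8.31), and in PyN 15 against 1.42 (10.6, 5.92 to 17.5). In *Smo*-cKO it was 12 cells against 3.78 in RG (3.18, 1.64 to 5.55), 20 against 3.81 in IPC (5.26, 3.21 to 8.12) and 6 against 0.864 in PyN (6.95, 2.55 to 15.1). In IPC of *Smo*-cKO it was 2.14 (0.0541 to 11.9) without the cells that held 3 markers of a second class.

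*Zic2* and *Zic5*, the other pair of neighbors, were less tied in RG, and in IPC few cells held either. In control RG 82 cells held both against 57.8 (1.42, 1.13 to 1.76), and 1.38 times as many at 2000 UMIs. In *Smo*-cKO RG it was 69 against 54.5 (1.27, 0.984 to 1.60). In control IPC 9 cells held both against 1.34 (6.73, 3.08 to 12.8) and in *Smo*-cKO IPC 5 against 1.70 (2.95, 0.957 to 6.88), but without the cells that held 3 markers of a second class no cell held both in either library. Over all kept cells the ratio was 3.33 in the control and 3.16 in *Smo*-cKO, against 6.71 and 5.40 for *Zic1* with *Zic4*. These values mix classes, which raises the ratio of genes that lie in the same class. Pairs across the 2 loci lay at 1.94 (*Zic1* and *Zic2*), 1.89 (*Zic1* and *Zic5*), 2.32 (*Zic2* and *Zic4*) and 1.90 (*Zic4* and *Zic5*) in control RG. In control IPC they were higher, at 3.91, 2.89, 4.69 and 4.95 in that order, on 23, 23, 7 and 10 cells with both. In *Smo*-cKO IPC they lay at 1.40, 2.10, 2.87 and 5.30, the last on 8 cells. High ratios in IPC were thus not confined to neighboring genes. All of these ratios are descriptions over the cells of 1 library.

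Most cells with a member held a UMI of just 1. A gene can be expressed in a cell without a UMI, so the number of members a cell expresses is not read from these counts. In control RG, 831 cells held 1 member, 185 held 2, 49 held 3 and 8 held all 4, beside 2398 with none. In *Smo*-cKO RG the counts were 566, 140, 13 and 4, beside 1348. In control PyN 110 cells held 1 member, 17 held 2, 2 held 3 and none held all 4.

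**Figure D3:**
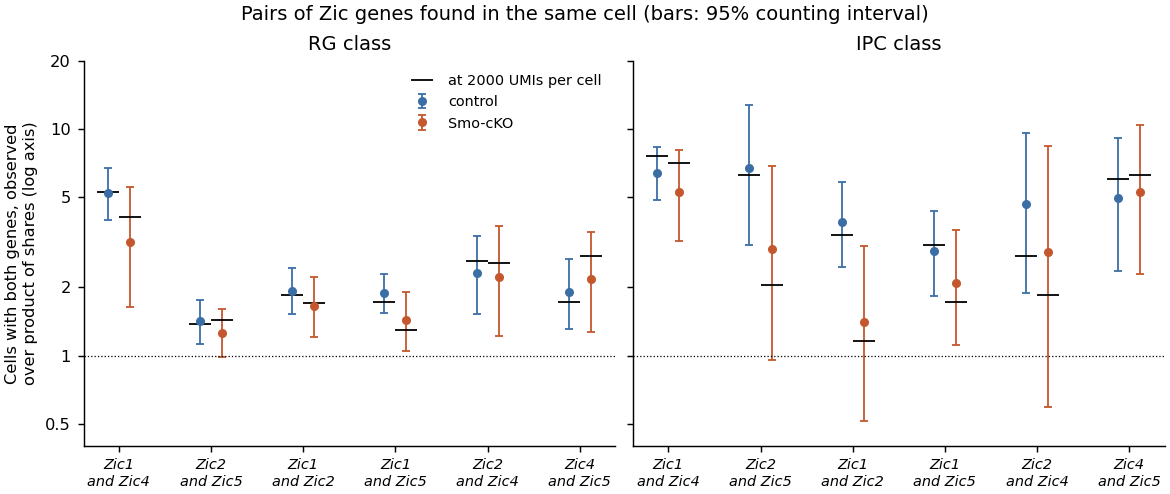
Cells with UMIs of both genes of a pair, divided by the number the 2 shares give, are plotted on a log axis for RG (left) and IPC (right). Points are the libraries with 95% counting intervals, black ticks the value at 2000 UMIs per cell and the dotted line 1. In control RG *Zic1* with *Zic4* stands at 5.23 and *Zic2* with *Zic5* at 1.42, while in control IPC they stand at 6.41 and 6.73, the latter on 9 cells.

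Cajal-Retzius neurons, the reelin-secreting cells of the marginal zone, held all 4 members. Of 20 control CR cells (median 8762 UMIs), 16 held *Zic1* (193 CPM), 13 held *Zic2* (120 CPM), 10 held *Zic4* (72.2 CPM) and 11 held *Zic5* (108 CPM). Only 1 of the 20 held no member and 6 held all 4. The class had 4 cells in *Smo*-cKO, of which 3 held *Zic1* and 1 held all 4. The sort selected dye-marked progeny of ventricular progenitors. Neither *Smo* nor *Prm1* was found in these 24 cells. *Prm1* was absent from all kept control cells, and *Smo* was found in only 7.84% of control RG, so no lineage is read from these counts.

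In the vascular class *Zic1* followed the mural markers. Among 46 control vascular cells, 16 held *Zic1*. Of the 25 with more endothelial markers, 1 held *Zic1*, and of the 15 with more mural markers, which are those of pericytes and smooth muscle, 12 held *Zic1*. In *Smo*-cKO 10 of 10 mural cells held *Zic1*, and none of 12 endothelial cells did. *Zic2*, *Zic4* and *Zic5* were in 7, 5 and 3 of the 46 cells. The split of this class was added after its values were seen.

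The PyN cells that kept a Zic gene were then described by their other genes. In the control 129 of 1800 PyN cells held a member UMI, 116 of them *Zic1*, and in *Smo*-cKO 174 of 1876, 162 of them *Zic1*. Median UMIs were 3448 in cells with a member and 3250 in those without. Of 8430 genes tested in the control, 148 (1.76%) were at least 2-fold higher in cells with a member and 279 (3.31%) at least 2-fold lower. Of these, 20 and 17 passed the fold in the same direction in *Smo*-cKO, where 104 and 151 of 8956 genes passed it. Control cells with a member held 547174 UMIs together, against 6240476 in those without. Genes of few UMIs can thus pass the fold by counting error, and no number of differing genes is read from these counts.

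Genes past the fold in both libraries led the list. *Wnt5a*, a ligand of non-canonical Wnt signaling, was at 51.2 CPM in control cells with a member against 9.13 in those without, and at 79.3 against 22.1 in *Smo*-cKO. *Cxcr4*, the receptor that guides migrating neurons along *Cxcl12*, was at 43.9 against 6.57 CPM in the control, with log2 ratios of 2.57 and 2.81. *Adssl1*, an enzyme of purine synthesis, was at 40.2 against 5.61 and 44.5 against 9.10 CPM. *Gm28050* was at 250 against 47.9 and 116 against 28.6 CPM.

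Others that passed the fold in both libraries were *Dct*, an enzyme of melanin synthesis (log2 ratio 2.43 in the control and 2.29 in *Smo*-cKO), *Stc2* (2.15 and 1.87), *Plch1* (2.07 and 1.17), the lipid carrier *Apoe* (1.99 and 1.55), the transcription factor *Ebf1* (1.84 and 1.24) and *Lingo1* (1.81 and 2.01). The 15 leading genes also held 5 that were past the fold in the control alone. They were *Hells*, a chromatin remodeler of dividing cells (2.12 and −0.13), *Pnp* (2.04 and 0.58), the netrin receptor *Dcc* (56.7 against 13.8 CPM in the control, and 0.83 on the log2 scale in *Smo*-cKO), *Rhbdl3* (1.86 and 0.70) and *Zfp423* (1.74 and 0.95).

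*Nr2f1*, a nuclear receptor that patterns the cortical areas, was lower in both libraries, at 157 against 458 CPM in the control and 77.1 against 428 in *Smo*-cKO. The noncoding *A830082K12Rik* went with it, at 9.14 against 33.5 and 7.60 against 30.1 CPM. The other 8 of the 10 leading lower genes did not pass the fold in *Smo*-cKO. *Stmn4*, a neuronal gene, was at 27.4 against 110 CPM in the control and 93.4 against 87.5 in *Smo*-cKO. The neuronal genes *Jph4* (−1.75 and 0.05), *Dab1* (−1.66 and 0.19) and the microtubule protein gene *Mapt* (−1.68 and 0.33) had values near or above 0 there, while *Shtn1* (−1.79 and −0.20), *Mef2c* (−1.60 and −0.45), *Grin2b* (−1.46 and −0.06) and *Osbpl6* (−1.45 and −0.66) stayed at or below it.

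**Figure D4:**
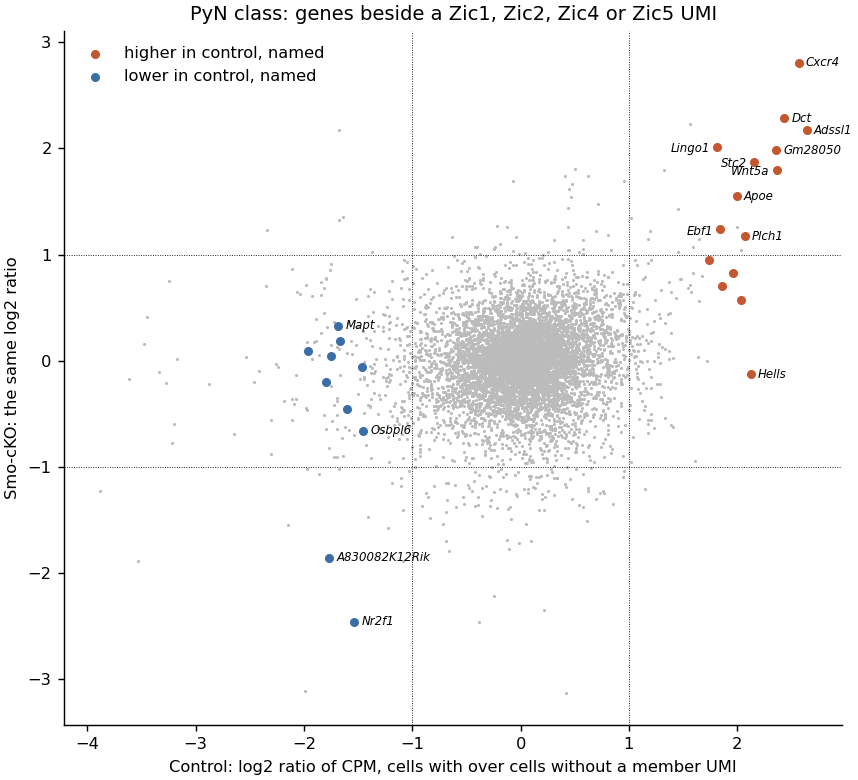
Each point is a gene of the PyN class, with the log2 ratio of CPM in cells with over cells without a member UMI in the control on the horizontal axis and the same ratio in *Smo*-cKO on the vertical axis. Dotted lines mark 2-fold, and colored points are the 15 leading higher and 10 leading lower genes of the control. *Cxcr4*, *Dct*, *Adssl1* and *Wnt5a* are high in both libraries and *Nr2f1* is low in both, while *Hells* and *Mapt* are not past the fold in *Smo*-cKO.

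Markers of other classes moved with these cells. The 10 CR markers summed to 38.4 CPM in control PyN cells with a member and 9.29 in those without, and to 116 and 10.2 CPM in *Smo*-cKO. *Calb2* made up most of it, with 31.1 and 112 CPM in cells with a member, and 7 of the 10, *Trp73* and *Lhx5* among them, were at 0 in those cells of each library. Cells without a member were also short of them, with a UMI of 5 of the 10 in the control and 7 in *Smo*-cKO. *Reln* was in 1 of 129 cells with a member and 16 of 1671 without in the control, and in 3 of 174 and 10 of 1702 in *Smo*-cKO. Any CR marker was found in 8 of 129 cells with a member and 42 of 1671 without, and in 22 of 174 and 38 of 1702 in *Smo*-cKO. The 10 RG markers summed to 1146 against 663 CPM in the control and 930 against 807 in *Smo*-cKO, and the 10 PyN markers to 2409 against 2808 and 2771 against 2781. Vascular markers summed to 3.66 against 1.60 CPM in the control and 1.09 against 3.61 in *Smo*-cKO, with 9 of 10 at 0 in cells with a member. The part of these cells in the values above was not tested.

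Few genes of the lists were past the fold in PyN. Of 8 tested genes on the list named for the medial cortex and hem, 0 were higher and 2 lower, *Nr2f1* and *Rspo3*. *Nr2f1* patterns the cortical areas and is no marker of the medial side alone. No gain or loss of medial identity is read from this count. *Rspo3* rested on 1 UMI in cells with a member (ratio 0.137, 0.00344 to 0.787) and was at 1.23 on the log2 scale in *Smo*-cKO. Of 4 hedgehog genes, *Gas1*, a co-receptor, was higher (1.72 in the control and −0.01 in *Smo*-cKO). Of 4 lateral genes and 2 GLI-type genes none passed the fold. Medians were 0.46 for the medial list, 0.68 for hedgehog, 0.06 for lateral and 0.52 for GLI-type genes, against 0.02 over all genes.

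With *Zic1* alone in place of any member, 149 genes (1.77%) were higher and 316 (3.75%) lower in control PyN. *Zic1* was then used to divide the progenitors, a step added after the data were seen. In control IPC, 339 cells held *Zic1* and 122 of 10135 genes (1.2%) were at least 2-fold higher and 82 (0.809%) lower. In control RG, 356 cells held it, and of 11075 genes 55 (0.497%) were higher and 92 (0.831%) lower. In IPC 30 genes were past the fold upward and 18 downward in both libraries, and in RG 13 and 9. Over all genes tested in *Smo*-cKO the counts were 115 and 204 of 9254 genes in IPC and 116 and 139 of 10874 in RG. Here too genes of few UMIs can pass the fold by counting error, and no number of differing genes is read.

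Several genes recurred across the 3 classes. *Wnt5a* was at 49.3 against 15.3 CPM in control IPC (log2 ratio 1.63, and 1.31 in *Smo*-cKO) and at 1.70 and 0.97 in RG. *Dct* was at 30.0 against 9.97 CPM in control IPC and 73.5 against 14.6 in *Smo*-cKO, and at 1.24 and 2.01 in RG. *Nr2f1* was lower in IPC (140 against 375 CPM, −1.41 and −2.38) and in RG (132 against 336 CPM, −1.34 and −1.91), and *A830082K12Rik* followed it in both (−1.04 and −1.39, −1.05 and −1.72).

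Other genes were tied to 1 or 2 classes. *Cxcr4* was higher in IPC with *Zic1* (1.70 and 1.13), and its ligand *Cxcl12* was lower there (−1.21 and −1.22). *Tesc* led in control RG at 56.6 against 4.77 CPM (3.32), with 1.16 in *Smo*-cKO. *Hrk* was at 30.5 against 2.92 CPM in control IPC and 19.5 against 6.25 in *Smo*-cKO, and *Prox1*, a factor of the dentate gyrus lineage, at 1.01 and 1.00, in control IPC the only gene of the lists past the fold beside *Nr2f1*.

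Zic-bearing progenitors also differed in other marker sums. RG markers summed to 11611 CPM in control RG cells with *Zic1* and 17804 in those without, and to 15066 and 22481 in *Smo*-cKO, while cycling markers summed to 2990 and 2372, and 1909 and 1587. Oligodendrocyte lineage markers summed to 481 and 303 CPM in the control and 191 and 180 in *Smo*-cKO, and vascular markers to 64.6 and 33.0, and 36.1 and 44.2. In IPC cycling markers summed to 1602 CPM with *Zic1* and 823 without in the control, and 627 and 275 in *Smo*-cKO. Their part in the values above was not tested.

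Few genes were past the fold between RG with and without a *Zic2* or *Zic5* UMI. Of 11074 genes in the control, 12 (0.108%) were at least 2-fold higher and 13 (0.117%) lower in the 832 cells with a UMI. In *Smo*-cKO 13 and 17 of 10873 passed, 0 and 1 of them in the same direction as in the control. Median UMIs in control RG were 6228.5 with a UMI and 4906 without, so cells without one can hold undetected transcripts. Fewer genes pass by counting error in so large a set. No likeness of the cells is read from these counts. *Dct* (1.04 and 0.58) and *Zic1* (1.01 and 0.63) led the higher genes. The gliogenic factor *Olig2* was at 94.2 against 56.2 CPM in the control (0.73) and at 1.12 on the log2 scale in *Smo*-cKO.

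Across all 10498 control cells, the genes whose levels most resembled each member were named by Pearson's r of log-normalized UMIs, with the value in the 7209 *Smo*-cKO cells beside it. For *Zic1* they were *Zic4* (0.31 and 0.21), *Gm28050* (0.20 and 0.14), *Rmst* (0.18 and 0.06) and *Ebf1* (0.16 and 0.15). For *Zic4* they were *Zic1*, *Tesc* (0.16 and 0.11), *Hrk* (0.16 and 0.07) and *Rmst* (0.15 and 0.01). *Zic2* and *Zic5* pointed to progenitor genes instead. *Zic5* was closest to *Vim* (0.25 and 0.26), *Zfp36l1* (0.23 and 0.20), *Mt2* (0.22 and 0.24), *Sox2* (0.22 and 0.20) and *Phgdh* (0.21 and 0.24), and *Zic2* to *Hopx* (0.20 and 0.20), *Zfp36l1* (0.19 and 0.18), *Vim* (0.19 and 0.22), *Mt1* (0.17 and 0.18) and *Ptprz1* (0.17 and 0.18). The cells of a library share depth and classes, and such weak values in sparse counts are a description only.

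In the ferret cortex *ZIC2* and *ZIC5* were also lower in PyN than in RG, and *ZIC1* was found in few PyN cells. In RG, 590 cells in set 1 and 823 in set 2, *ZIC2* was at 17.4 and 36.3 CPM and *ZIC5* at 23.9 and 38.7. In PyN, 7259 and 9020 cells, *ZIC2* was at 0.492 and 0.869 CPM and *ZIC5* at 0.894 CPM in set 1. Over both sets the PyN to RG ratio was 0.0248 (0.0176 to 0.0344) for *ZIC2*. Microglia held no member in 82 and 52 cells, which allows shares of up to 3.66% and 5.77%.

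The 2 sets differed although they are of 1 embryo. *ZIC2* was 2.08 times (1.42 to 3.11) and *ZIC5* 1.62 times (1.16 to 2.29) higher in RG of set 2. *ZIC1* was in 0 of 7259 PyN cells of set 1, which allows a share of up to 0.0413%, and in 49 of 9020 (0.543%, 1.25 CPM) of set 2. *ZIC1* in RG was at 2.49 and 6.40 CPM and *ZIC4* at 0 and 1.60. In control mouse PyN, *Zic1* was in 6.44% of cells at a median of 3264 UMIs. Species, age, sorting and counting all differ, so no ratio is taken between them.

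**Figure D5:**
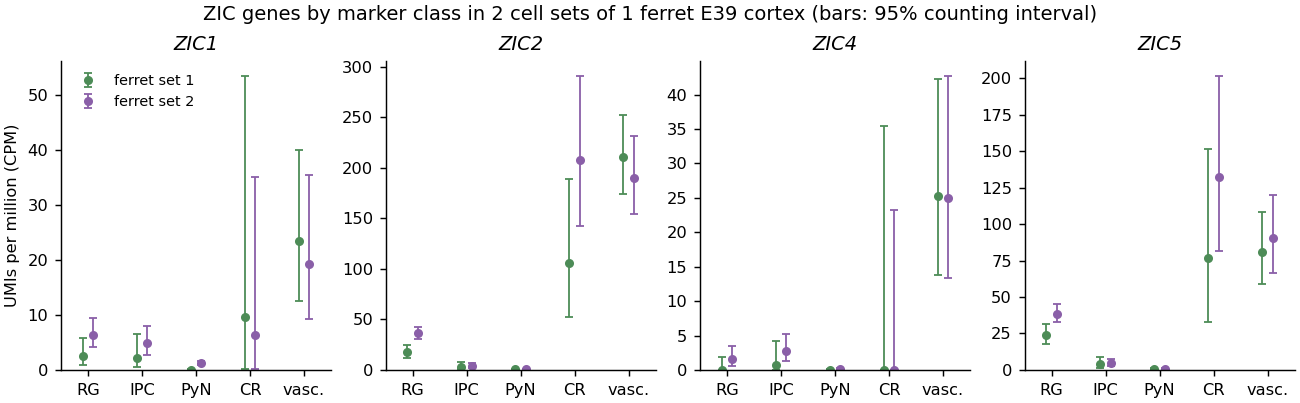
The level in CPM of each ZIC gene is plotted for 5 classes of ferret cortex (vasc. is vascular) in ferret set 1 (green) and ferret set 2 (purple), with 95% counting intervals. *ZIC2* and *ZIC5* are high in RG, CR and vascular cells and low in PyN, where *ZIC2* is at 0.492 and 0.869 CPM.

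*ZIC2* and *ZIC5* were found together in 34 ferret RG cells of both sets against 17.3 from the shares, with an interval of the ratio from 1.36 to 2.74 and a ratio of 1.80 at 2000 UMIs. No RG cell held both *ZIC1* and *ZIC4*, which were in 27 and 6 cells, where the shares give 0.115. In IPC 3 cells held both against 0.140 (21.4, 4.42 to 62.7), all in set 2, and over all kept cells 10 did against 0.315 (31.8, 15.2 to 58.4). A ratio over all kept cells mixes classes and rises where both genes lie in the same class. In set 1 it was 102 over all kept cells, on 3 cells that were all vascular. Within the vascular class of set 1 it was 2.07 (0.427 to 6.04). CR cells again held *ZIC2*, in 6 of 24 and 16 of 25, and *ZIC5*, in 5 of 24 and 10 of 25. In the vascular class *ZIC2* was in 51 of 91 and 49 of 84 cells (211 and 190 CPM), *ZIC5* in 32 and 31 and *ZIC1* in 12 and 10. The genes closest to *ZIC2* over the 13052 cells of set 2 were those of vessels, *FN1*, *ADGRL4*, *PECAM1*, *GNG11* and *CLDN5* (0.31 each, and 0.40 to 0.44 in set 1), and those closest to *ZIC5* were *VIM* (0.27 and 0.20), *SLC1A3* (0.26 and 0.16), *SPARCL1* (0.26 and 0.22), *PON2* (0.25 and 0.18) and *SPARC* (0.25 and 0.25). For *ZIC4* they were *BGN* (0.26 and 0.23), *APOA1* (0.23 and 0.33), *RGS5* (0.22 and 0.37), *EBF1* (0.22 and 0.31) and *FN1* (0.21 and 0.26). *ZIC1* was closest to *TAGLN* (0.10 and 0.11) and to 2 genes known by identifier alone.

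Ferret PyN cells with a member were few, 27 in set 1 and 109 in set 2. Of 12125 genes in set 1, 12.7% were at least 2-fold higher and 26.4% lower, whereas of 13494 genes in set 2, 4% were higher and 7.34% lower. In both sets 233 genes were higher and 299 lower. The 27 cells of set 1 held 112434 UMIs together, against 22263566 in its PyN cells without a member. At that size the presence or absence of a UMI can carry a gene of low level past the fold in either direction. These shares and counts are therefore partly set by the few cells, and no number of differing genes is read from them. Among the leading genes were the endothelial *RAMP2* and *CLDN5*, the bone morphogenetic protein target *ID1* and the Cajal-Retzius gene *RELN*. *RAMP2* was at 151 against 1.93 CPM (log2 ratio 5.70, and 0.99 in set 2), *CLDN5* was also at 151 against 1.93 (5.70 and 1.71), *ID1* at 320 against 5.61 (5.60 and 2.55) and *RELN* at 507 against 21.6 (4.49 and 2.65). The part of such cells in these values was not tested.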

How the data were processed

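Single cells were captured on the 10x Chromium platform. The authors deposited UMI counts per gene and cell, 1 table for both mouse libraries and 1 for both ferret sets, and the submitters' processing notes name Cell Ranger, StringTie, Seurat 3 and mm10, the latter also for ferret. The ferret annotation is not given in the sources used here. Cells were kept within the study's limits of 750 to 5000 genes and under 10% mitochondrial UMIs, which left 10498 of 10524 control, 7209 of 7596 *Smo*-cKO, 10185 of 10190 ferret set 1 and 13052 of 13292 ferret set 2 cells, with 30548876 to 56090792 UMIs per library.

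Classes were given per cell as described, from 10 markers each. No doublet caller was run, and cells with 3 markers of a second class were left out as an alternative. Shares have exact Clopper-Pearson intervals, CPM exact Poisson intervals, differences of shares Newcombe intervals and ratios of CPM exact conditional binomial intervals. Intervals cover counting error only, and with 1 library per genotype no test was made. A share at 2000 UMIs is the expected share after drawing that many UMIs per cell without replacement. A floor of 3 counts stands behind each limit of a count of 0. Co-detection was divided by the product of the shares, with a Poisson interval on the count. Genes were compared as log2 ratios with 1 CPM added where they held at least 50 UMIs, and past the fold means a log2 ratio of at least 1 in size.

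The members and lists were chosen with earlier results of these data known. Genes named are the members, list genes past the fold in the control, and the 15 highest and 10 lowest genes of the PyN comparison that had a UMI in at least 10% of the cells of the higher set. The same rule gave the leading genes of the other divisions, of which those named were chosen after their values were seen, and *Prm1* likewise. The genes most like each member, at most 5, had the highest Pearson r of the log of depth-scaled UMIs among genes in at least 50 cells, with none named under 0.1.

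A few genes that these rules pick are not reported here. Alternatives changed the cell limits, marker minimum, lead, depth, second classes, cycling cells, the added CPM and the UMI minimum. The steps were tested on simulated data. The tools were scipy 1.17.1, numpy 2.4.6, pandas 2.3.3 and matplotlib 3.10.9 under Python 3.11.15.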

Additional observations from a re-analysis of the deposited data

Results flagged for a closer look

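Cells outside the classes compared also held members of the family. Among cells given no class, 192 of 1672 in the control (11.5%, 9.99 to 13.1) and 114 of 1070 in *Smo*-cKO (10.7%, 8.87 to 12.7) held a UMI of *Zic1*, *Zic2*, *Zic4* or *Zic5*. Of the 387 *Smo*-cKO cells outside the limits on genes or mitochondrial UMIs, 37 did (9.56%, 6.82 to 12.9). In ferret the cells given no class held a member in 43 of 1620 (2.65%, 1.93 to 3.56) in set 1 and 56 of 1434 (3.91%, 2.96 to 5.04) in set 2. They are listed since each share is above the limit that a count of 0 allows in as many cells, which is 0.179%, 0.280%, 0.775%, 0.185% and 0.209% in that order.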

How the results depend on the processing

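No paired analysis was possible because each genotype has 1 library. Of the values recomputed under the alternatives, 258 kept their direction and their side of the fold, or moved by less than their counting interval or, for gene counts, less than 1.5 times, 29 moved further, 4 changed direction and 1 was no longer past the fold, and the cause was not tested. A change of direction was counted only where the main interval excluded no difference. Other values can have crossed the value of no difference without being counted as such. Without cells that held 3 markers of a second class, the *Smo*-cKO to control ratio was 0.779 for *Zic1* in RG, 1.39 for *Zic1* in PyN, 0.574 for *Zic4* in IPC and 1.88 for *Zic5* in IPC. The ratio of observed to expected co-detection in IPC was then 0 for *Zic2* with *Zic5* and for *Zic1* with *Zic2* in both libraries, a change of direction in the control, and 2.14 for *Zic1* with *Zic4* in *Smo*-cKO. With a lead of at least 2 markers the genotype ratio in PyN was 1.45 for *Zic1* and 0 for *Zic5*, and the PyN to RG ratio was 0.940 for *Zic1* in the control, a change of direction, 0.00744 for *Zic5* in the control and 0 for *Zic5* in *Smo*-cKO. Without cycling cells the genotype ratio of *Zic1* in IPC was 0.929 and the PyN to RG ratio of *Zic1* in the control 1.48. The difference of shares was 0.499 points for *Zic2* in RG and 0.278 for *Zic5* in IPC when 2 UMIs were required, and 0.352 and 0.327 at 2000 UMIs per cell, where *Zic5* in RG changed direction to −0.609. Genes past the fold between PyN cells with and without a member numbered 427 in the control and 255 in *Smo*-cKO, and 191 and 90 with 5 CPM added, 51 and 38 with at least 200 UMIs, and 1092 and 870 with at least 2 member UMIs. Between genotypes they numbered 344 in RG, 357 in IPC and 108 in PyN, and 114, 153 and 36 with 5 CPM added and 197, 198 and 31 with at least 200 UMIs. Alternatives chosen after seeing the data were IPC with an *Eomes* UMI (*Zic1* 0.753), cycling RG alone, *Zic1* alone to divide cells, the split of the vascular class and other class rules for the PyN to RG ratio. In PyN, *Zic2*, *Zic4* and *Zic5* are limited by depth. With 5 CPM added, a step also chosen after seeing the data, *Zic4* in RG lost its place past the fold (log2 ratio −0.59), and a minimum of 200 UMIs leaves it untested.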
